A study of Homo sapiens with 6 samples.

Results

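The 10 genes described here form the core of the circadian transcription loop. CLOCK, NPAS2, ARNTL and ARNTL2 are its activators, and PER1, PER2, PER3, CRY1, CRY2 and CIART are its repressors. They were chosen by gene symbol, and each matched 1 of the 58395 genes counted. Their RNA was measured in 6 clonal lines of HEK293, an established human cell line of embryonic kidney origin. Of these lines, 3 (lines 2, 8 and 9) overexpressed GST-3F, a tagged glutathione S-transferase (the tag is labelled 3F). The other 3 lines (4, 11 and 12) overexpressed NOCT ∆(2-15)-3F, nocturnin lacking residues 2 to 15 with the same tag, and are called NOCT lines below. Each line is a single clone grown as 1 culture and harvested once, so the spread between lines includes differences between clones. The labels record no step that would synchronise the cells, so a level here is an average over whatever clock phases the cells of a culture were in. In bulk RNA, fewer cells that express a gene and less RNA per cell cannot be told apart.

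In this loop a CLOCK or NPAS2 protein pairs with ARNTL (also named BMAL1) or ARNTL2 (BMAL2) and binds E-box sequences near target genes, among them the PER and CRY genes. PER and CRY proteins accumulate, enter the nucleus and inhibit the activator pair, and CIART (also known as CHRONO) is a further repressor that acts on the same pair. Nuclear receptors close a second loop: ROR proteins activate and REV-ERB proteins repress ARNTL through a site called the RORE. NOCT itself is known as a rhythmically expressed output gene of the clock in many tissues.

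The promoter windows of these genes are shown because the loop is wired through short sites in them. RefSeq windows on GRCh38.p14, running from 250 bases before to 50 bases after each annotated start, were found for 10 of the 10 genes. They were searched on both strands for an E-box (CACGTG), the variant called E-prime box (CACGTT), a D-box (TTATGTAA), a cAMP response element (TGACGTCA) and the core of a RORE (TAGGTCA). No 2 of the matches below share bases. The E-box was found in 2 of the 10 genes, PER1 and CIART, beside 8.77% of all 27305 genes with a window. CIART held 3 E-boxes, which 0.11% of all genes reached or passed. The E-prime box was found in 4 of the 10 (CLOCK, PER2, CRY1 and CRY2) beside 6.44% of all genes, the D-box in PER3 alone beside 1.13%, and the RORE core in ARNTL and CRY2 beside 2.29%. The cAMP response element was in 0 of the 10 and in 2.25% of all genes. Capitals below mark the match, and each stretch runs 5′ to 3′ on the strand of its gene. The PER1 stretch is chr17:8152560-8152589 on the minus strand, and the CIART stretches are chr1:150282413-150282442 and chr1:150282478-150282507 on the plus strand. The PER2 stretch is chr2:238288790-238288819 and the CRY1 stretch is chr12:107093621-107093650, both on the minus strand. The PER3 stretch is chr1:7784103-7784132 and the ARNTL stretch is chr11:13277809-13277838, both on the plus strand.
PER1, E-box: agcacccaggtcCACGTGcgcccgtgtgtg
CIART, first E-box: agtaactagagtCACGTGttaccggcgaca
CIART, E-box pair: ggaggCACGTGccgggccgCACGTGtctgg
PER2, E-prime box: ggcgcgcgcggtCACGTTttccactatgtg
CRY1, E-prime box on the opposite strand: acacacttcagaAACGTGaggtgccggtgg
PER3, D-box: gagcccgcgcgTTATGTAAcgcgccccggg
ARNTL, RORE core: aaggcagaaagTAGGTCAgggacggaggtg
In these windows the sites of PER1, PER2, PER3, CRY1 and CIART lie before the RefSeq start, and the ARNTL site begins at base 31 after 1 of its 2 RefSeq starts. The PER1, PER2 and CRY1 sites lie inside the longer gene spans that GENCODE gives. A match describes the letters only.

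The libraries held 19729745 to 24422406 gene counts each, and no batch is given in the labels. The constructs were as labelled: the GST row had 46 to 88 counts in GST lines and 0 or 1 in NOCT lines. The NOCT ∆(2-15) row had 46 to 82 counts in NOCT lines and 3 to 7 in GST lines, while the NOCT gene row, which is separate, had 38 to 53 counts in NOCT lines and 55 to 65 in GST lines. Reads from nocturnin sequence may fit both of these rows, and reads not uniquely aligned were left out. The 2 NOCT rows therefore check the labels and do not measure the level of NOCT. Of 11 genes listed as HEK293 markers, 8 were above 1 TPM in every line; PAX8, a kidney transcription factor, was below 1 TPM throughout, and PAX2 and NEFM were above it in some lines. Of 12 markers of blood, liver, muscle, endothelium, fibroblasts and glia, 11 were below 1 TPM in every line, with COL1A1 at 2.14 to 7.28 TPM. The summed level of those 12 was 3.44 to 3.80 TPM in GST lines and 2.77 to 8.12 TPM in NOCT lines.

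All 10 genes were expressed in every line, at levels that fell into an upper and a lower tier. Levels of different genes were compared as TPM, a unit scaled for gene length and depth. The length is 1 fixed value per gene, such as 12491 bases for NPAS2 and 6726 for ARNTL, whichever transcripts the cells make. In unscaled counts CLOCK was above ARNTL2 in each line (1233 to 1679 against 846 to 1398). NPAS2 was likewise above ARNTL (230 to 347 against 165 to 279). The order below thus depends on these lengths, and whether they suit these cells was not tested. ARNTL2, CLOCK and CRY1 made up the upper tier and together held 67.3% to 72.4% of the summed TPM of the 10 genes in each line. ARNTL2 was at 21.9 ± 2.85 TPM, CLOCK at 16.7 ± 2.18 and CRY1 at 13.3 ± 1.25 (SD over the 6 lines, n = 6). The lower tier ran from ARNTL at 4.10 ± 0.60 TPM to PER3 at 2.77 ± 0.16, with PER2, CRY2, PER1 and NPAS2 between them, and CIART came last at 1.14 ± 0.48 TPM (SD, n = 6). Among neighbours in this order, 3 of the 9 steps had ranges over the 6 lines that were apart: CLOCK above CRY1, CRY1 above ARNTL, and PER3 above CIART. CLOCK was above CRY1 within 6 of 6 lines, but on the 2 other scales tried, TMM-scaled counts and spike-in-scaled counts per kilobase, the ranges of these 2 genes over the lines overlapped. Both of those scales divide by the same fixed lengths. ARNTL2 (17.2 to 24.9 TPM) and CLOCK (14.9 to 20.2 TPM) overlapped, with ARNTL2 the higher of the 2 in 5 of 6 lines, and so did each pair of neighbours from ARNTL down to PER3, so those neighbours were not told apart in level. Of the 17261 genes tested below, 70.6% had a lower mean TPM than ARNTL2, 30.3% a lower one than ARNTL, and 10.6% a lower one than CIART.

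**Figure D1:**
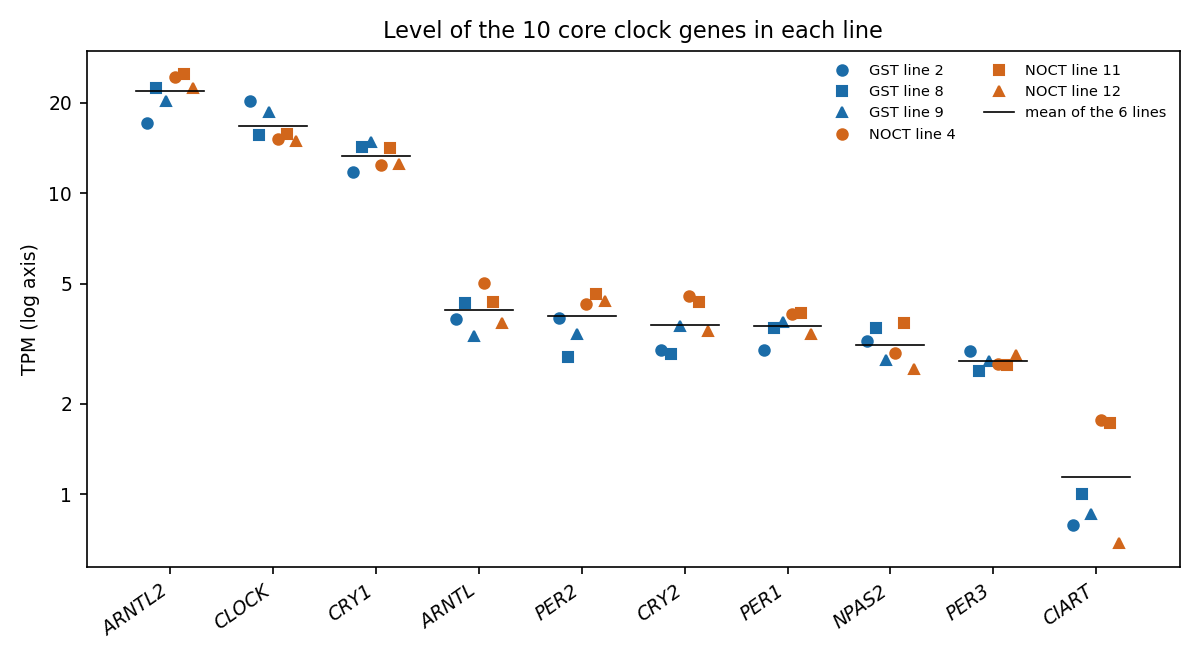
TPM (vertical log axis) of the 10 genes in each of the 6 lines, ordered by mean; blue symbols are GST lines, orange symbols NOCT lines and bars the mean of the 6 lines. ARNTL2, CLOCK and CRY1 lie at or above 11.8 TPM in each line, and the other 7 genes at or below 5.04 TPM.

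Among the activators, the less widely studied paralog of ARNTL was the more abundant one. ARNTL2 exceeded ARNTL 5.39 ± 0.66-fold in TPM (SD, n = 6; 4.48-fold to 6.06-fold over the lines). CLOCK exceeded NPAS2, its paralog and the partner of ARNTL in forebrain and other tissues, 5.41 ± 0.99-fold (SD, n = 6; 4.26-fold to 6.68-fold). Each SD covers the spread between lines and not the fixed gene lengths behind the ratio. Neither ratio separated the groups: NPAS2 relative to CLOCK was 0.159, 0.230 and 0.150 in GST lines 2, 8 and 9 and 0.194, 0.235 and 0.176 in NOCT lines 4, 11 and 12. ARNTL relative to ARNTL2 was 0.223, 0.193 and 0.165 in the GST lines and 0.207, 0.175 and 0.165 in the NOCT lines. The summed TPM of the 4 activators was 45.1 ± 0.72 over the GST lines against 46.6 ± 2.68 over the NOCT lines (SD, n = 3 each), and these ranges overlapped.

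Among the repressors, CRY1 exceeded CRY2 3.75 ± 0.74-fold in TPM (SD, n = 6), while the 3 PER genes were close to each other. CRY1 and CRY2 encode the cryptochromes, which block the activator pair, and the PER proteins bind them and carry them into the nucleus. PER1 was between 0.775 and 1.25 times PER2 over the lines, with no separation of the groups. The CRY2 to CRY1 ratio was 0.257, 0.204 and 0.243 in GST lines 2, 8 and 9 and 0.365, 0.307 and 0.279 in NOCT lines 4, 11 and 12, so the NOCT lines were the 3 highest. The PER3 to PER2 ratio was 0.776, 0.902 and 0.814 in the GST lines and 0.632, 0.580 and 0.662 in the NOCT lines, so the NOCT lines were the 3 lowest. These ratios do not depend on the scaling of the libraries, but their size depends on the fixed gene lengths. They were examined among 5 ratios and are given as values, without a test. Of all single genes tested, 19.9% had groups without overlap in TPM, and the share among ratios of other genes was not computed. The summed TPM of the 6 repressors was 27.3 ± 1.88 over the GST lines against 29.6 ± 2.10 over the NOCT lines (SD, n = 3 each), with overlapping ranges. The median gene was itself 0.072 higher in NOCT lines on log2(TPM + 1), and the activator and repressor sums are not corrected for that. The activator sum was 1.54 to 1.75 times the repressor sum over the 6 lines.

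**Figure D2:**
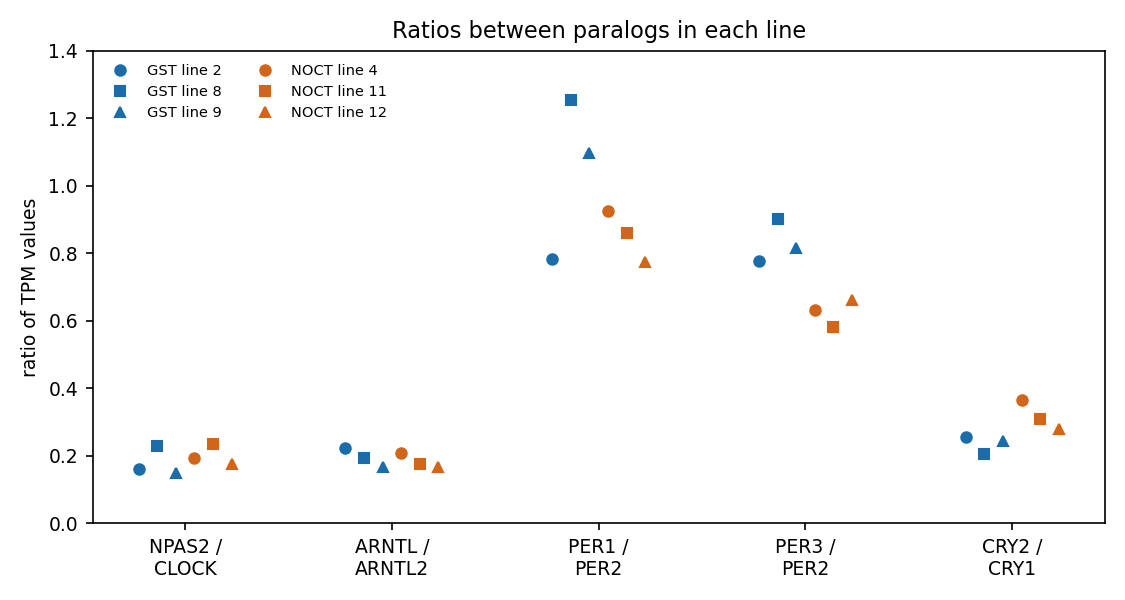
Ratio of TPM values (vertical axis) for 5 pairs of paralogs in each line, blue for GST and orange for NOCT lines. The CRY2 to CRY1 ratio is 0.204 to 0.257 in GST lines and 0.279 to 0.365 in NOCT lines, and the first 3 pairs overlap between the groups.

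The comparison between the groups asks whether lines that overexpress NOCT ∆(2-15)-3F differ from GST lines in the RNA of the loop. It used CPM, counts relative to library size after TMM scaling, which suits one gene across lines; in the TPM table the mitochondrial ribosomal RNA MT-RNR2 alone took 43.0% to 47.7% of the total, so its level moves the TPM of each other gene. None of the 10 genes passed an adjusted p of 0.05 in edgeR's quasi-likelihood test, in which 10 of 17261 genes (0.0579%) passed. The smallest adjusted p was 0.302, for CLOCK. An unadjusted p under 0.05 was found for 1 of the 10, CLOCK, beside 13.9% of all genes. DESeq2 on the same counts also called 0 of the 10, beside 3.41% of the genes to which it gave an adjusted p, and put 1 of the 10 at an unadjusted p under 0.05, beside 13.5% of all genes. Of the 10 genes, 6 had a higher and 4 a lower fitted mean in NOCT lines, and the median log2 fold change was 0.08 beside 0.0046 for all genes tested. In CPM, 2 of the 10 genes, CLOCK and ARNTL2, had groups without overlap, beside 20.0% of all genes. In TPM this held for 1 of the 10, PER2, beside 19.9% of all genes.

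**Figure D3:**
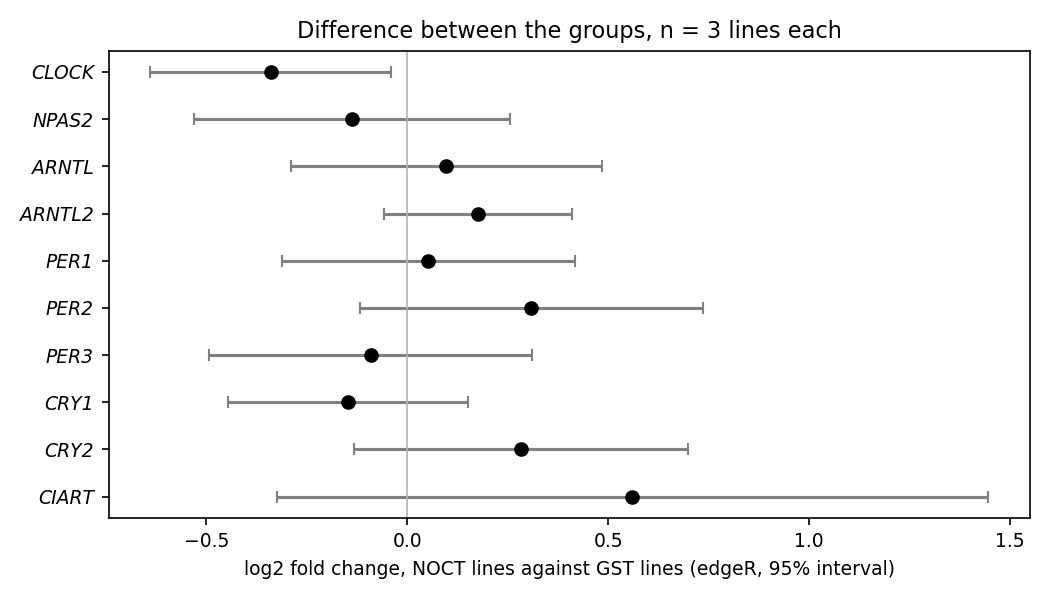
Fitted log2 fold change of NOCT lines against GST lines (horizontal axis, points) with its unadjusted 95% interval from edgeR (bars), n = 3 lines a group. The interval of CLOCK ends at -0.04, and the other 9 intervals include 0.

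CLOCK encodes the bHLH-PAS activator that pairs with ARNTL. It lies on chromosome 4 at 55427903 to 55547138, minus strand (GRCh38), and had 1233 to 1679 counts per line. Its level was 88.5, 63.0 and 78.8 CPM in GST lines 2, 8 and 9 and 57.8, 62.4 and 61.8 CPM in NOCT lines 4, 11 and 12. All 3 NOCT lines were below the lowest GST line, but GST line 8 was within 1 CPM of NOCT line 11, and in TPM these lines changed places (15.6 and 15.7). The means were 76.7 ± 12.9 CPM over the GST lines against 60.7 ± 2.52 CPM over the NOCT lines (SD, n = 3 each), and the log2 fold change was -0.34 ± 0.13 (SE; 95% interval -0.64 to -0.04; edgeR adjusted p 0.302). Neighbouring genes were high in the same line as CLOCK. The median of up to 50 tested genes on each side of CLOCK, relative to its mean over the 6 lines, was 0.25 in GST line 2 and between -0.08 and -0.0033 in the other 5 lines, on the log2 scale. On that scale CLOCK itself was at 0.38 in GST line 2 and at 0.21 in GST line 9. With the neighbour level taken out, the log2 fold change of CLOCK was -0.20 (edgeR adjusted p 0.357). It was -0.23 without GST line 2 (edgeR adjusted p 0.488) and -0.47 without GST line 8 (edgeR adjusted p 0.307). Without any other line it was between -0.37 and -0.31.

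ARNTL2 lies on chromosome 12 at 27332854 to 27425289, plus strand. It was at 44.6, 53.7 and 50.9 CPM in GST lines 2, 8 and 9 and at 54.9, 58.6 and 55.2 CPM in NOCT lines 4, 11 and 12. Each NOCT line was thus above each GST line, the closest 2 being 53.7 and 54.9 CPM. The log2 fold change was 0.18 ± 0.10 (SE; 95% interval -0.06 to 0.41; edgeR adjusted p 0.481). For CLOCK and ARNTL2 the exact two-sided permutation test over the lines gave p = 0.1, the smallest value that 3 lines against 3 allow.

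ARNTL, the usual partner of CLOCK and the gene with the RORE core shown above, overlapped between the groups. It was at 9.59, 9.97 and 8.10 CPM in GST lines 2, 8 and 9 and at 11.0, 9.85 and 8.77 CPM in NOCT lines 4, 11 and 12, with NOCT line 4 highest and GST line 9 lowest. Its log2 fold change was 0.10 ± 0.17 (SE; 95% interval -0.29 to 0.48; edgeR adjusted p 0.828). The gene lies on chromosome 11 at 13276652 to 13387266, plus strand.

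NPAS2 lies on chromosome 2 at 100820152 to 100996829, plus strand. It was at 15.0, 15.4 and 12.5 CPM in GST lines 2, 8 and 9 and at 11.9, 15.5 and 11.5 CPM in NOCT lines 4, 11 and 12. NOCT line 11 was thus as high as the highest GST line, and the other 2 NOCT lines were lowest. The log2 fold change was -0.14 ± 0.17 (SE; 95% interval -0.53 to 0.26; edgeR adjusted p 0.756). In NOCT line 4 the neighbours of NPAS2 were at -0.39 on the log2 scale, against 0.04 to 0.13 in the other 5 lines, and with the neighbour level taken out the log2 fold change of NPAS2 was 0.07 (edgeR adjusted p 0.874).

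PER2, elsewhere on chromosome 2 (238244038 to 238290102, minus strand), also had neighbours that were low in NOCT line 4 but was itself not low there. PER2 encodes a period protein whose RNA responds to both the E-box loop and external signals. It was at 9.86, 6.72 and 8.40 CPM in GST lines 2, 8 and 9 and at 9.50, 10.8 and 10.7 CPM in NOCT lines 4, 11 and 12. Only GST line 2 reached into the range of the NOCT lines. Means were 8.33 ± 1.57 and 10.3 ± 0.70 CPM (SD, n = 3 each), with a log2 fold change of 0.31 ± 0.19 (SE; 95% interval -0.12 to 0.74; edgeR adjusted p 0.498). The neighbours of PER2 were at -0.38 in NOCT line 4, where PER2 was at 0.05, and at -0.0070 to 0.14 in the other lines. Relative to them the log2 fold change was 0.54 (unadjusted edgeR p 0.0160, adjusted p 0.237), the highest of the alternatives. In that fit 2515 of 17261 genes had an unadjusted p under 0.05. With 1 line left out and no neighbour level taken out, PER2 ran from 0.17 (without GST line 8) to 0.44 (without GST line 2).

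**Figure D4:**
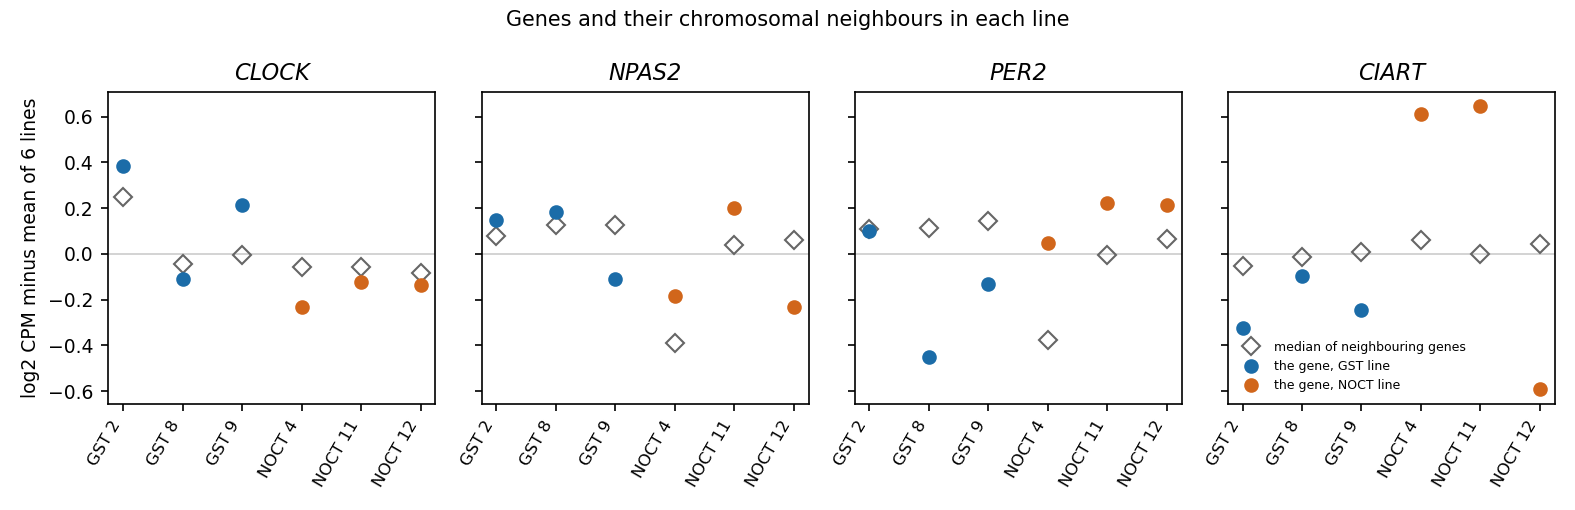
Log2 CPM relative to the mean of the 6 lines (vertical axis) for 4 genes in each line (filled circles, blue for GST and orange for NOCT) and the median of their neighbours on the chromosome (open diamonds). The neighbours of CLOCK stand at 0.25 in GST line 2, those of NPAS2 and PER2 at -0.39 and -0.38 in NOCT line 4, and those of CIART between -0.05 and 0.06.

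The remaining PER genes differed little between lines. PER1, a rapid responder to external signals (chromosome 17, 8140472 to 8156506, minus strand), was at 7.86, 8.58 and 9.38 CPM in GST lines 2, 8 and 9 and at 8.95, 9.41 and 8.42 CPM in NOCT lines 4, 11 and 12. Its log2 fold change was 0.05 ± 0.16 (SE; 95% interval -0.31 to 0.42; edgeR adjusted p 0.906). The groups overlapped, and 9.75% of the 14926 genes averaging 1 CPM or more had a narrower range over the 6 lines than PER1. PER3 (chromosome 1, 7784320 to 7845177, plus strand), the gene with the D-box shown above, was at 9.01, 7.14 and 8.05 CPM in the GST lines and at 7.07, 7.35 and 8.32 CPM in the NOCT lines. Its log2 fold change was -0.09 ± 0.17 (SE; 95% interval -0.49 to 0.31; edgeR adjusted p 0.848).

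The cryptochromes lay on opposite sides of 0. CRY1 (chromosome 12, 106991364 to 107093829, minus strand) was at 22.1, 24.8 and 27.0 CPM in GST lines 2, 8 and 9 and at 20.4, 24.1 and 22.3 CPM in NOCT lines 4, 11 and 12, with a log2 fold change of -0.15 ± 0.13 (SE; 95% interval -0.45 to 0.15; edgeR adjusted p 0.650). The highest line was a GST line and the lowest a NOCT line, with the other 4 intermixed. CRY2 (chromosome 11, 45847118 to 45883248, plus strand) was at 6.96, 6.21 and 8.05 CPM in GST lines 2, 8 and 9 and at 9.11, 9.09 and 7.62 CPM in NOCT lines 4, 11 and 12. NOCT lines 4 and 11 were above each GST line, and NOCT line 12 was below GST line 9. The log2 fold change of CRY2 was 0.28 ± 0.18 (SE; 95% interval -0.13 to 0.70; edgeR adjusted p 0.521).

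CIART, the repressor with 3 E-boxes, had the widest spread of the 10 genes and the fewest reads, 13 to 39 per line. It lies on chromosome 1 at 150282543 to 150287093, plus strand. Its counts were 15, 20 and 17 in GST lines 2, 8 and 9 and 39, 35 and 13 in NOCT lines 4, 11 and 12, or 0.791, 0.928 and 0.835 CPM and 1.53, 1.57 and 0.652 CPM. NOCT lines 4 and 11 were the highest of the 6 and NOCT line 12 was the lowest. The exact 95% Poisson interval, which covers counting error only, was 1.09 to 2.09 CPM in NOCT line 4, 1.09 to 2.18 in NOCT line 11 and 0.347 to 1.11 in NOCT line 12. Those of the GST lines ran from 0.443 at the lowest to 1.43 CPM at the highest, so they overlapped the intervals of all 3 NOCT lines. The log2 fold change was 0.56 ± 0.38 (SE; 95% interval -0.32 to 1.44; edgeR adjusted p 0.554). Without NOCT line 12 it was 0.85 (unadjusted edgeR p 0.0251, adjusted p 0.153). In that fit 4156 of 17882 genes had an unadjusted p under 0.05. The log2 fold change of CIART was 0.38 without NOCT line 4 (edgeR adjusted p 0.834) and 0.37 without NOCT line 11 (edgeR adjusted p 0.831). The neighbours of CIART moved by at most 0.06 in any line.

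Over the 6 lines, 7 of the 10 genes had a range of log2 CPM narrower than the median of the 14926 genes averaging 1 CPM or more, which was 0.60. The ranges were 0.26 for PER1, 0.35 for PER3, 0.39 for ARNTL2, 0.41 for CRY1, 0.43 for both NPAS2 and ARNTL, 0.55 for CRY2, 0.62 for CLOCK, 0.68 for PER2 and 1.24 for CIART. The genes with profiles most like the 2 widest were found by the root mean square difference of centred log2 CPM over the 6 lines, among 14916 other genes. For CIART they were C8orf48, on chromosome 8 (difference 0.07, beside a deviation of 0.47 of CIART around its own mean), ENSG00000278949 on chromosome 12 (0.08) and ADAM19, a metalloprotease gene on chromosome 5 (0.08). ADAM19 was at 11.5, 13.7 and 11.1 CPM in GST lines 2, 8 and 9 and at 21.4, 19.5 and 9.27 CPM in NOCT lines 4, 11 and 12, for which edgeR gave a log2 fold change of 0.47 (adjusted p 0.511). For PER2 they were RCOR1, a corepressor gene on chromosome 14 (difference 0.02, beside 0.23 for PER2 around its own mean), ENSG00000228327 on chromosome 1 (0.03) and CDKN3, a cell cycle phosphatase gene on chromosome 14 (0.04). Profiles over 6 lines match by coincidence for many genes, and the likeness is a description.

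Other genes of the clock were read from 4 lists, and relatives of the activators outside the clock from a further list. Of 4 nuclear receptors tested, 1 passed, RORB, beside 0.0579% of all genes, and the median log2 fold change of the 4 was -0.23. On the log2 scale RORA, an activator of ARNTL, differed by -0.00040 (edgeR adjusted p 0.998) and NR1D1, a REV-ERB repressor of ARNTL, by -0.018 (edgeR adjusted p 0.979). RORB, a receptor of the ROR family that acts at the RORE, fell from 26.7, 26.2 and 19.2 CPM in GST lines 2, 8 and 9 to 0.942, 3.18 and 2.06 CPM in NOCT lines 4, 11 and 12 (log2 fold change -3.55 ± 0.38, SE; edgeR adjusted p 0.0279). The call was lost in edgeR without GST line 2, 8 or 9 and without NOCT line 11. NR1D2, which encodes a REV-ERB repressor of ARNTL, was at 66.7, 68.6 and 66.7 CPM in the GST lines and at 47.5, 52.4 and 49.9 CPM in the NOCT lines (log2 fold change -0.43 ± 0.09, SE; edgeR adjusted p 0.121). ARNTL, the target of both kinds of receptor, had the values given above.

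None of 6 output regulators (PAR-bZIP factors, NFIL3 and the DEC repressors) passed in edgeR, with 1 at an unadjusted p under 0.05, beside 13.9% of all genes, and a median log2 fold change of 0.05. HLF, a PAR-bZIP factor that binds D-boxes, went from a mean of 3.94 to 2.46 CPM (log2 fold change -0.68 ± 0.23, SE; edgeR adjusted p 0.265). BHLHE40, a DEC repressor that binds E-boxes, was at 68.0, 23.9 and 44.4 CPM in GST lines 2, 8 and 9 and at 93.3, 118.8 and 28.7 CPM in NOCT lines 4, 11 and 12 (edgeR adjusted p 0.512). As for CIART, NOCT lines 4 and 11 were the 2 highest lines, while NOCT line 12 lay between GST lines 8 and 9. The share of all genes with NOCT lines 4 and 11 highest was not computed. NOCT line 12 mattered for many genes: edgeR called 10 genes with it and 970 without it.

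Of 23 genes for the stability of PER and CRY proteins, 0 passed in edgeR, with 2 at an unadjusted p under 0.05, beside 13.9% of all genes. These were USP7, a deubiquitinase gene, with a log2 fold change of -0.23, and CSNK1E, which encodes a casein kinase that phosphorylates PER proteins, with 0.25. Of 20 coactivators and corepressors, 0 passed and 3 had an unadjusted p under 0.05, against the same 13.9%. EP300, a histone acetyltransferase that CLOCK and ARNTL recruit, was at 244.0, 239.0 and 256.8 CPM in GST lines 2, 8 and 9 and at 321.9, 333.9 and 331.1 CPM in NOCT lines 4, 11 and 12, with no overlap (log2 fold change 0.42 ± 0.08, SE; edgeR adjusted p 0.120). WDR5, a subunit of histone methyltransferase complexes, had -0.32 (edgeR adjusted p 0.298). Among 12 relatives of the activators outside the clock, 0 passed and 3 had an unadjusted p under 0.05, again beside 13.9% of all genes; EPAS1, a hypoxia-inducible factor, was at -1.18 on the log2 scale (edgeR adjusted p 0.173) and AHR, the dioxin receptor, had 0.54 (edgeR adjusted p 0.210). With DESeq2, 4 of the 63 genes tested in these lists passed, RORB, NR1D2, EP300 and EPAS1, beside 3.41% of all genes with an adjusted p.

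Some annotated genes overlap the 10. TMEM165 overlaps CLOCK on the opposite strand and shares 76 exon bases with it, and its 6222 counts over the 6 libraries were assigned to its own row. Of the antisense genes, AC024243.1 at the start of CLOCK had 31 counts, AC016738.1 at the end of NPAS2 had 27 and AC012485.3 at the start of PER2 had 14. On the strand of the gene and inside its introns, AC092168.2 in NPAS2 had 208 counts, RN7SKP30 in CLOCK 79 and RN7SKP151 in ARNTL 10. PER1 shares 1.11% of its exon bases with MIR6883 and 0.43% with AC129492.3, both on its own strand with 0 counts, so reads over those bases may be missing from the PER1 count.

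The authors' deposited table, from their own DESeq2 comparison, also has 0 of the 10 genes at an adjusted p under 0.05, beside 2.87% of its rows with an adjusted p. In that table CLOCK has a log2 fold change of -0.31 with a standard error of 0.14 (p-value 0.0293, adjusted p 0.284), the smallest p of the 10. The authors' deposited table gives PER2 0.25 (adjusted p 0.595), CRY2 0.23 (adjusted p 0.653) and CIART 0.25 (adjusted p 0.743), after a shrinkage that the file's name mentions. All 10 signs in the authors' deposited table were those of the edgeR fit.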

How the data were processed

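Per the labels' protocols, total RNA with ERCC spike-ins was depleted of ribosomal RNA and sequenced as strand-specific libraries, 1 per line. The authors deposited whole-read counts per gene. The submitters' processing notes name STAR 2.5.2b, HTSeq 0.6.1p1, DESeq2 1.16.1 and GRCh38; the annotation release is not given in the sources used here. The authors' deposited TPM table equals these counts divided by 1 length per gene, and for 98.3% of 15951 genes that length was within 5% of the exon union in GENCODE 29, which gave the coordinates. The authors' deposited DESeq2 table holds log2 fold changes, p-values, a Wald score and a mean normalised signal; its direction was taken from the construct rows. Rows naming no gene, 26.5% to 30.6% (no feature), 2.02% to 2.41% (ambiguous) and 13.3% to 14.6% (not uniquely aligned) of the reads in a file, were left out.

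edgeR 4.0.16 in R 4.3.3 compared 3 NOCT with 3 GST lines on 17261 genes kept by filterByExpr. It used TMM factors, the quasi-likelihood test and Benjamini-Hochberg adjustment at 0.05. The fit was also run on simulated data, whose changes were larger than any fitted for the 10 genes. That run cannot tell how well changes as small as theirs are found. Standard errors came from the F statistic. Intervals are unadjusted and cover the spread between these lines. Alternatives were DESeq2 1.42.0, limma 3.58.1 (voom, log2(TPM + 1), log2(TPM + 0.1)), a robust fit, other scalings and filters, a neighbour offset and leaving out each line. The members, the lists and the alternatives were chosen with earlier results of these data known. Members were all named, as were, per list, called genes and the 2 with the smallest p, the 3 genes nearest in profile to the 2 widest members, and overlapping genes with 10 or more counts. The 5 motifs were searched in RefSeq promoter windows.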

Additional observations from a re-analysis of the deposited data

How the results depend on the processing

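No member passed an adjusted p of 0.05 under any of the 17 alternatives that tested it; CIART was not tested with a filter of 1 CPM in 3 lines. The smallest adjusted p among these fits was 0.144, for ARNTL2 with spike-in totals. Spike-in totals as library sizes moved the median gene to a log2 fold change of 0.15, and 9 of the 10 members were then above 0. ARNTL2, PER2 and CRY2 were at an unadjusted edgeR p under 0.05, beside 3522 of all 17261 genes. In that fit NPAS2 was at 0.014, PER3 at 0.054 and CRY1 at 0.0041 in place of negative values. The neighbour offset turned NPAS2 to 0.073; leaving out 1 line moved PER1 between -0.010, without GST line 2, and 0.12, without GST line 9. The other members kept their direction in each alternative, and 164 of the 169 alternative fold changes had the direction and side of the threshold of the edgeR fit. The count of all genes called was 10 in the edgeR fit, 508 with DESeq2, 16 with limma voom, 22 with spike-in totals, 34 with library totals alone, 888 with no filter on low counts and 37 with the neighbour offset, and 0 to 970 when a line was left out (970 without NOCT line 12, and 0 without GST line 9, where 1488 had an unadjusted p under 0.05). Of the genes in the 5 lists, 1 was called in the edgeR fit, 4 with DESeq2, 4 with no filter, and 0 to 6 when a line was left out; without NOCT line 12 they were RORB, NR1D2, EP300, EPAS1, AHR and GSK3A. The causes were not tested. Of the 9 steps in the order of levels, 3 had ranges apart in TPM, 2 on the other 2 scales (not CLOCK above CRY1), 4 without GST line 2 and 3 without any other line. No paired analysis was possible because the line numbers differ between the groups. Depth limits CIART most, at 13 to 39 counts.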
